A study of Mus musculus with 8 samples.

Results

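A set of 9 genes of epithelial oxidant production and inducible defense were followed across 8 libraries of mouse small intestinal organoids. They were chosen by symbol: the oxidase genes Duox2, Duoxa2, Nox1 and Noxo1, the nitric oxide synthase gene Nos2, the secreted defense genes Lcn2, Saa1 and Saa2, and the immunoglobulin receptor gene Pigr. All 9 had a row in the table of expected counts and in the table of TPM, which list 55416 genes. The organoids are three-dimensional cultures grown in a commercial medium (IntestiCult) from epithelial cells of C57BL/6 mice aged 4 to 8 weeks. All groups shared one genotype, Rosa26-rtTA Tg/Tg with Col1A1-TetO-OSKM Tg/Tg, an OSKM cassette under a TetO promoter with the rtTA activator that responds to a drug. The labels mention no inducing drug for these samples. Control organoids were compared with organoids given 6 Gy of X-rays, at day 4 and at day 7, and each of the 4 groups holds 2 libraries. From which event the days were counted, how many mice were used and whether replicate libraries came from separate cultures are not stated in the labels. The p-values below therefore measure the spread between these libraries, which may be technical.

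DUOX2 is a membrane enzyme of epithelial cells that makes hydrogen peroxide at the cell surface, and it needs its maturation factor DUOXA2 to leave the endoplasmic reticulum. NOX1 makes superoxide and works in a complex with the membrane partner CYBA, the organizer NOXO1, the activator NOXA1 and the small GTPase RAC1. NOS2 makes nitric oxide from arginine and needs the cofactor tetrahydrobiopterin. LCN2 is a secreted protein that binds bacterial siderophores and so withholds iron, SAA1 and SAA2 are acute phase proteins that epithelium can secrete, and PIGR carries polymeric IgA and IgM across the epithelial cell. In the gut these genes are known for induction by microbial products and by cytokines such as interleukin 17, interleukin 22 and interferon gamma. The labels name epithelial cells only.

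Expected counts summed to between 7541760 and 16054300 per library, and a single count equalled between 0.0610 and 0.120 CPM (counts scaled to library size). Mitochondrial transcripts took 12.9% to 27.6% of the counts, with the highest share in replicate 2 of the irradiated organoids at day 4. All 9 epithelial markers on the list were present in all 8 libraries, with summed levels of 3949 to 7156 CPM. Of the colon markers, Car1 and Hoxb13 were at 0 in all 8 libraries and the 4 genes summed to at most 9.45 CPM. The 5 markers of the small intestine summed to 418 to 1234 CPM. Fabp6 of that list was at 0 in several libraries, both day 4 controls among them. The mesenchymal list summed to 1.87 to 3.54 CPM. Cell type markers differed with irradiation at day 4 by the test described below. All 7 enterocyte markers and all 6 Paneth cell markers were higher and all 5 mitosis genes lower. Of 5 crypt stem cell markers 4 were lower, and of 6 goblet cell markers 2 were higher and 2 lower. Of 4 tested small intestine markers 2 were higher and 2 lower. Over all genes tested 20% were higher and 16.5% lower. The enterocyte list reached sums of 6421 and 12018 CPM in the irradiated day 4 libraries, against 1914 and 1835 CPM in controls of that day, and 2537 and 2510 against 1453 and 1433 CPM at day 7. In bulk samples more cells of a type and more RNA per cell cannot be told apart, and the part of these markers in the results below was not tested.

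Duox2 and Duoxa2 lie head to head on mouse chromosome 2, so the 2 promoter windows are shown because the data bear on both genes of the pair. The windows run from 250 bases before to 50 bases after the annotated start, 5′ to 3′ on the strand of the gene, and come from RefSeq on build GRCm38.p6. The Duox2 window is chr2:122298178-122298477 on the minus strand and the Duoxa2 window is chr2:122298650-122298949 on the plus strand, and the start sites are 673 bases apart. Capitals mark a match to one of the motifs searched.
Duox2: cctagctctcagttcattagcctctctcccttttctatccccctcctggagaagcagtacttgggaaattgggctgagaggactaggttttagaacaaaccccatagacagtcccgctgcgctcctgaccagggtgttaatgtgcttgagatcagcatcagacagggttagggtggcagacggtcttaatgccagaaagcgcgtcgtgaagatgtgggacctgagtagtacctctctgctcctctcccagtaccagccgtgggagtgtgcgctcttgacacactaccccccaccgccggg
Duoxa2: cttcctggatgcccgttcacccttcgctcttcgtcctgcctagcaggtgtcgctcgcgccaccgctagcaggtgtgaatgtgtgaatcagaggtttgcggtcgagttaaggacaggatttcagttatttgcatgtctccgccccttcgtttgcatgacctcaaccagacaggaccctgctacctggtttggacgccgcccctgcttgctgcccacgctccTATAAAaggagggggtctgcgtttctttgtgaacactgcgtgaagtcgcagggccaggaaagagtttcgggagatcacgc
The letters TATAAA stand at position -30 of the Duoxa2 window and were not found on either strand of the Duox2 window, and 14.2% of 27025 RefSeq promoter windows of the same length hold them. The other motifs, searched on both strands without overlap between their matches in these windows, were GGANTTTCC for NF-kB (1.23% of windows), TTCNNNGAA for STAT factors (8.47%) and TTGCNNAA for C/EBP factors (10.8%). RefSeq windows were found for 8 of the 9 genes, all but Nos2. GGANTTTCC was in none of these 8 windows, and looser or longer forms of the NF-kB letters were not searched. TTGCNNAA was in the windows of Saa1 and Saa2, as TTGCACAA at -182 and -183, and of Lcn2, as TTGCTCAA at -216. TTCNNNGAA was in that of Pigr, as TTCCTGGAA beginning at base 40 of the transcript. The Saa1 and Saa2 windows shared 287 identical bases (95.3% of the alignment). A match is a description of the letters and says nothing about binding.

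Of the 9 genes, 5 had enough counts to be tested. Genes were tested with edgeR's quasi-likelihood F-test in 1 fit over all 8 libraries, adjusted by the Benjamini-Hochberg method over 14063 genes and called at an adjusted p under 0.05, and every adjusted p given below comes from that edgeR fit unless another is named. To be tested a gene needed about 0.989 CPM in 2 libraries. Noxo1 and Pigr reached this in all 8 libraries and Duox2 in 3 control and 4 irradiated libraries. Nox1 reached it in 3 irradiated libraries and Nos2 in 4, and neither did in any control, so these 2 genes entered the test through the irradiated group and their place in the counts below is no support for a rise. Duoxa2 and Lcn2 did not reach it in any library, and Saa1 and Saa2 had no counts. At day 4, 3 members were called higher after irradiation (Duox2, Noxo1 and Nos2) and 0 lower, where 36.5% of all genes tested were called, 20% higher and 16.5% lower. At day 7, 2 were called higher (Duox2 and Noxo1) and 0 lower, against 8.65% of all genes, 4.7% higher and 3.95% lower. Counted without a test, the irradiated libraries both lay above both controls at day 4 in 3 of the 5 tested members and below in 0, where 33.4% and 31.8% of all genes did so. At day 7 this held for 4 members above and 1 below, where the shares over all genes were 33.3% and 32.6%.

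**Figure D1:**
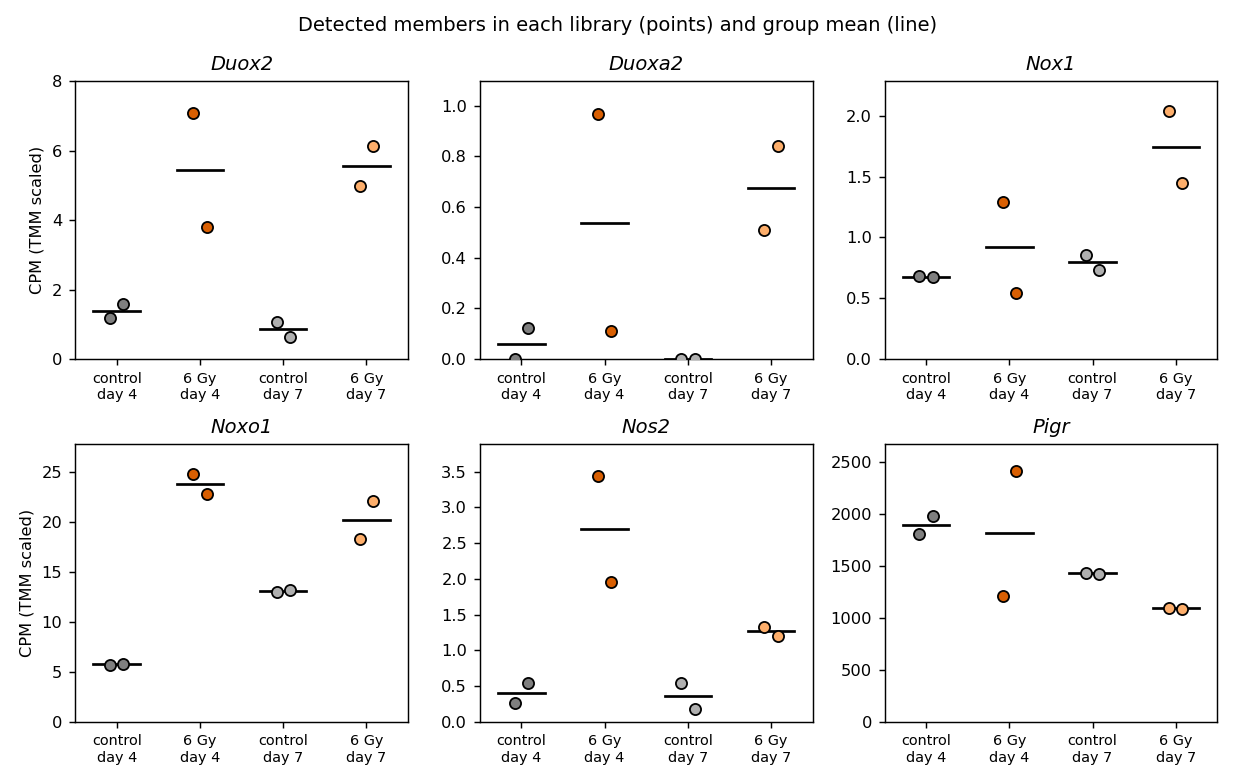
Level of the 6 members with counts in more than 2 libraries, in CPM scaled by TMM, in each library (points) and as the group mean (line), for control and irradiated (6 Gy) organoids at day 4 and day 7. Duox2, Noxo1 and Nos2 lie higher in every irradiated library than in every control of the same day, whereas the irradiated day 4 libraries of Pigr lie on both sides of the controls.

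Duox2, the catalytic peroxide-producing oxidase of the epithelial surface, rose after irradiation at both days. Its level was 1.19 and 1.58 CPM in controls at day 4 and 7.10 and 3.81 CPM with irradiation. At day 7 it was 1.07 and 0.644 CPM in controls and 5.0 and 6.14 CPM after irradiation. All 4 irradiated libraries were above all 4 controls, with 3.81 CPM as the lowest irradiated and 1.58 CPM as the highest control value. The means were 1.39 ± 0.277 and 5.45 ± 2.32 CPM at day 4 and 0.859 ± 0.304 and 5.57 ± 0.803 CPM at day 7 (SD, n = 2). The log2 fold change was 1.95 at day 4 (SE 0.386, adjusted p = 0.00316) and 2.7 at day 7 (SE 0.435, adjusted p = 0.00641). The difference between these effects was 0.75 (95% interval -0.57 to 2.06, adjusted p = 0.452), so a change of the effect with time was not resolved. These levels rest on few reads, 14 and 26 counts in controls and 66 and 35 after irradiation at day 4, and 10 and 7 against 49 and 51 at day 7. On log2(TPM + pseudocount) the rise was not called, with adjusted p of 0.106 to 0.137 at day 4 and 0.120 to 0.215 at day 7 by limma. At day 7 the adjusted p was 0.0583 without control replicate 1, 0.0904 without control replicate 2 and 0.0680 without irradiated replicate 2, with log2 fold changes of 2.36 to 3.08.

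Duoxa2, the maturation factor without which DUOX2 stays inside the cell, was near the limit of detection. The deposited counts were 0 and 2 in day 4 controls, 9 and 1 in irradiated organoids of that day, 0 and 0 in day 7 controls and 5 and 6.66 in the irradiated ones. Most of the day 4 signal came from 1 library, and at day 7 both irradiated libraries held counts where neither control did. Over the groups the ratio at day 4 was 7.61 (exact 95% interval 1.62 to 71.4), an interval that covers counting error only. At day 7 the irradiated level was 4.46-fold the level that 3 counts over the control group would give. That value takes the irradiated counts as exact and is not an interval. In the fit without a filter on low counts, edgeR's adjusted p was 0.111 at day 4 and 0.0184 at day 7. Duoxa2 overlaps Duoxa1 on the other strand over 695 bases of chromosome 2 (GRCm38, GENCODE M21), and Duoxa1, the maturation factor of DUOX1, had at most 1 count in any library after rounding. Per length, Duoxa2 reached 0.81 TPM and Duox2 1.8 TPM at their highest. Duox1, the other dual oxidase, had 3 counts over all 8 libraries.

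Noxo1, the organizer subunit of the NOX1 complex, was the oxidase gene with the highest level, and its deposited values rose 4.14-fold at day 4. At day 4 it stood at 5.71 and 5.79 CPM without irradiation and at 24.8 and 22.9 CPM with it. At day 7 the values were 13 and 13.2 CPM in controls and 18.3 and 22.1 CPM after irradiation. Every irradiated library was above every control, and controls at day 7 were above controls at day 4. The means were 5.75 ± 0.0577 and 23.9 ± 1.40 CPM at day 4, and 13.1 ± 0.178 and 20.2 ± 2.74 CPM at day 7 (SD, n = 2). The log2 fold change was 2.05 (SE 0.154, adjusted p = 1.09e-05) at day 4 and 0.62 (SE 0.147, adjusted p = 0.0307) at day 7. On log2(TPM + pseudocount) the day 7 rise was not called by limma. The effect at day 7 was smaller by -1.43 (SE 0.213, adjusted p = 0.00476); this made Noxo1 the 1 member called lower for the difference between the effects, where 10.1% of all genes were called, 4.6% higher and 5.51% lower. At day 7 the adjusted p ranged from 0.0745 to 0.220 when any of the 4 libraries was left out, and it was 0.130 by DESeq2.

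These values of Noxo1 cannot be read without Tbl3, a gene of ribosome biogenesis that lies across it on the other strand. Noxo1 occupies chr17:24696234-24700529 on the plus strand and Tbl3 chr17:24697949-24707660 on the minus strand (GRCm38, GENCODE M21), and 2122 of the 3013 exonic bases of Noxo1 (70.4%) are also exonic in Tbl3. In all 8 libraries the deposited counts of both genes held fractions, yet the sum of Noxo1 and Tbl3 was a whole number in each, within 0.01. Among 2822 genes with fractions in all 8 libraries, no gene other than Tbl3 gave such sums with Noxo1. Expected counts share a read between genes where it fits more than one, so reads had been divided between this pair. The library kit marks the strand per the labels' protocols, and the strand setting of the counting is not given in the sources used here.

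The share of the summed reads assigned to Noxo1 at day 4 was 12.9% and 13.9% for the controls and 43.3% and 42.0% for the irradiated libraries. At day 7 it was 27.6% and 26.2% in controls and 25.5% and 31.0% after irradiation. Tbl3 itself stood at 37.1 ± 1.83 CPM in controls and 32.1 ± 0.787 CPM after irradiation at day 4 (log2 fold change -0.21, adjusted p = 0.155). At day 7 it stood at 35.7 ± 2.34 and 51.4 ± 2.78 CPM (SD, n = 2; 0.53, adjusted p = 0.0153). The summed level of both genes was 42.9 ± 1.77 and 56.0 ± 2.18 CPM at day 4 and 48.8 ± 2.51 and 71.6 ± 0.0394 CPM at day 7. Tested as 1 feature in the edgeR fit, the sum rose after irradiation by 0.39 at day 4 (SE 0.0915, adjusted p = 0.00812) and by 0.55 at day 7 (SE 0.0914, adjusted p = 0.00696). The difference between these effects was then 0.17 (95% interval -0.12 to 0.45, adjusted p = 0.439), of the other sign. The rise over the locus was thus present at both days, while the size of the Noxo1 rise at day 4 and the smaller rise at day 7 depended on how the reads had been divided.

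**Figure D2:**
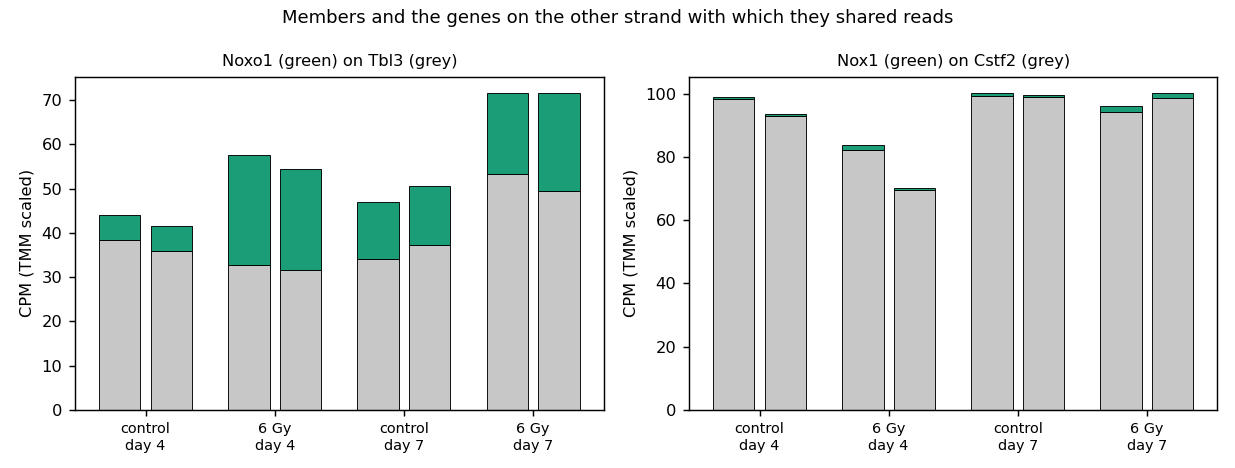
Stacked bars give, for each library in group order, the CPM assigned to the member (green) and to the gene on the other strand with which it shared reads (grey). Noxo1 is 12.9% to 43.3% of the height of its bars and Nox1 0.702% to 2.16% of the height of its bars.

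Nox1, the superoxide-producing catalytic subunit, was low in all groups and its effect was not called. Its day 4 values were 0.682 and 0.671 CPM without irradiation and 1.29 and 0.544 CPM with it, so the groups overlapped. At day 7 it was at 0.859 and 0.736 CPM in controls and 2.04 and 1.44 CPM after irradiation, without overlap. The log2 fold change was 0.44 at day 4 (95% interval -0.83 to 1.70, adjusted p = 0.588) and 1.13 at day 7 (95% interval -0.08 to 2.33, adjusted p = 0.222). Nox1 shares 399 exonic bases with Cstf2, a cleavage and polyadenylation gene on the other strand, at chrX:134086421-134086819 (GRCm38). The sum of Nox1 and Cstf2 was also whole in all 8 libraries, and Nox1 made up between 0.702% and 2.16% of it. The shared bases are 12.1% of the exonic bases of Nox1 and 4.35% of those of Cstf2. An error in dividing reads there could change the Nox1 value, by an amount that was not measured. The sum fell by 0.33 at day 4 (adjusted p = 0.0218) and differed by -0.03 at day 7 (adjusted p = 0.896), which follows Cstf2.

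Most other subunits of these enzymes were too low to test: of 11 partner genes, 2 had enough counts. Rac1, the GTPase of the complex, was called higher at day 4 (222 ± 4.03 to 259 ± 6.12 CPM, SD over n = 2, a log2 fold change of 0.22, adjusted p = 0.0347) and not at day 7 (0.18, adjusted p = 0.146). Cyba, the membrane partner of NOX1, had log2 fold changes of 0.29 at day 4 (adjusted p = 0.491) and 0.94 at day 7 (adjusted p = 0.0868). Its day 7 values were 5.05 and 4.51 CPM in controls and 7.76 and 10.6 CPM after irradiation, without overlap. Noxa1, the activator that completes the NOX1 complex, was at 0 to 0.109 CPM in all 8 libraries, at or under what 1 count stands for. Cybb, Ncf1, Ncf4 and Rac2, subunits of the phagocyte oxidase, were at most 0.430 CPM, and Ncf4 and Nox3 were at 0 in all 8 libraries. Per length, Rac1 reached 182 TPM, Noxo1 34.4 TPM and Cyba 23.8 TPM at their highest, while Nox1 did not pass 1.25 TPM and Noxa1 not 0.1 TPM.

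**Figure D3:**
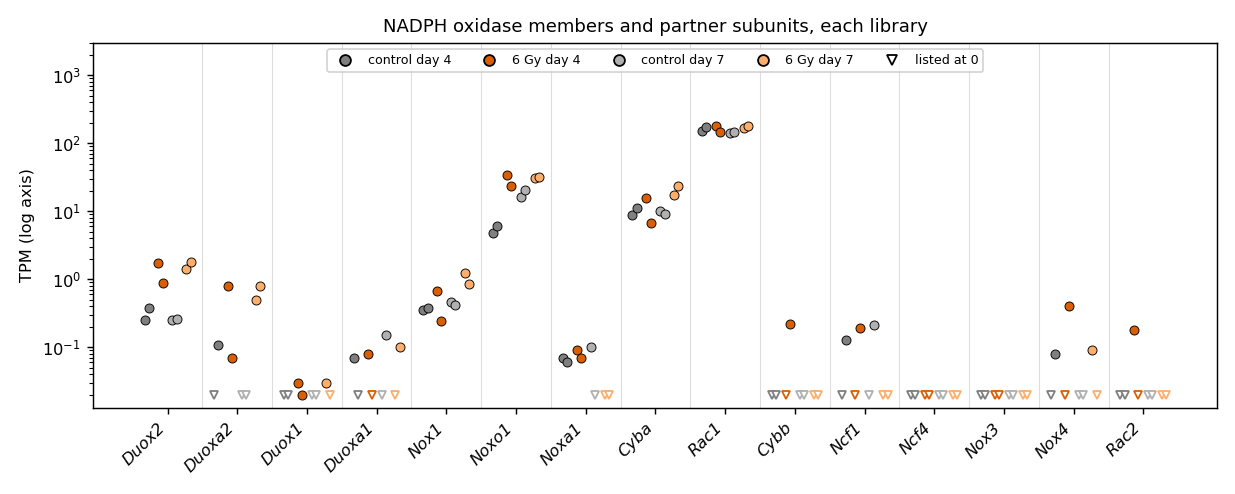
TPM (log axis) of the 4 oxidase members and their 11 partner genes in each library, coloured by group; open triangles mark libraries in which the gene was listed at 0. Rac1, Noxo1 and Cyba are the genes above 4 TPM in every library, and Duox1, Noxa1, Cybb, Ncf4, Nox3 and Rac2 do not pass 0.22 TPM.

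Genes that consume peroxide and superoxide were mostly higher or not called. Of 16 genes on this list 15 were tested, with 6 higher and 1 lower at day 4 and 6 higher and 0 lower at day 7. Over all genes tested, 20% were higher and 16.5% lower at day 4, and 4.7% and 3.95% at day 7. Gpx4, the glutathione peroxidase of membrane lipids, rose from 57.3 ± 2.73 to 120 ± 11.5 CPM at day 4 (log2 fold change 1.06, adjusted p = 3.28e-05) and from 55.7 ± 1.96 to 88.1 ± 6.32 CPM at day 7 (SD, n = 2; 0.66, adjusted p = 0.00489). Prdx5, a peroxiredoxin of mitochondria and peroxisomes, rose by 1.29 at day 4, and Gpx3 by 1.77 from a level under 1 CPM, having passed the filter through irradiated libraries alone. Gpx1 rose by 0.42 at day 4 and 0.57 at day 7. Prdx6 and Txn1, encoding thioredoxin, were called at day 7, at 0.50 and 0.45, and not at day 4, at 0.17 and 0.13; the difference between the days had adjusted p of 0.101 and 0.136. Prdx4, the peroxiredoxin of the endoplasmic reticulum, fell by 1.00 at day 4. The median over the 15 genes was 0.17 at day 4 and 0.31 at day 7.

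Nos2, the inducible nitric oxide synthase, was higher after irradiation at day 4. It reached the filter in 4 irradiated and 0 control libraries, and so entered the test through the irradiated group. The day 4 values were 0.256 and 0.549 CPM for the controls against 3.44 and 1.96 CPM for the irradiated libraries, and those of day 7 were 0.537 and 0.184 against 1.33 and 1.20 CPM. All 4 irradiated libraries lay above all 4 controls, and both day 4 irradiated libraries lay above both day 7 ones. The counts were 3 and 9 against 32 and 18 at day 4 and 5 and 2 against 13 and 10 at day 7. The log2 fold change was 2.66 at day 4 (SE 0.585, adjusted p = 0.00549) and 1.82 at day 7 (95% interval 0.30 to 3.34, adjusted p = 0.126). The difference between these effects was -0.84 (95% interval -2.96 to 1.29, adjusted p = 0.619). In an edgeR fit of the day 7 groups alone the adjusted p at day 7 was 0.0417. On log2(TPM + pseudocount) the day 4 rise was not called by limma, with or without a filter. Without a filter the adjusted p on log2(TPM + 1) was 0.173 at day 4 by limma.

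Nos2 is also a known gene of activated macrophages, and some immune markers moved with it. Of 14 immune markers 4 were tested. Csf1r, Lyz2 and Itgam were called higher at day 4, with log2 fold changes of 4.39, 3.50 and 1.01. Over all genes tested 20% were called higher at day 4. Csf1r and Lyz2 had passed the filter through the irradiated libraries alone, so their calls are no support for a rise. Cd68 was not called (-0.26, adjusted p = 0.665). The sum of the list was 11.4 and 12.8 CPM in the irradiated day 4 libraries, while the remaining 6 libraries lay between 4.60 and 7.22 CPM. Adgre1, the marker of mouse macrophages, was at 0 in all 8 libraries, and Ptprc, the leukocyte marker CD45, was at most 0.241 CPM. The endothelial list summed to 0.460 to 0.975 CPM in 6 libraries and to 2.37 and 4.79 CPM in the irradiated day 4 libraries, with Cdh5 and Kdr at 0 in all 8. The part of these genes in the Nos2 rise was not tested.

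The genes that supply and compete with NOS2 changed in both directions. Of 14 genes of arginine and nitric oxide handling 11 were tested, with 4 higher and 4 lower at day 4 and 1 in each direction at day 7. The shares over all genes were 20% higher and 16.5% lower at day 4, and 4.7% and 3.95% at day 7. Arg2, the mitochondrial arginase that draws on the same arginine, rose from 8.43 ± 3.14 to 72.4 ± 16.8 CPM at day 4 (log2 fold change 3.13, adjusted p = 6.17e-05) and from 20.1 ± 0.327 to 63.7 ± 4.16 CPM at day 7 (SD, n = 2; 1.66, adjusted p = 0.00643). Slc7a2, an arginine importer, fell from 8.55 ± 2.82 to 1.14 ± 0.219 CPM at day 4 (-2.91, adjusted p = 1.43e-04) and from 5.58 ± 0.301 to 1.38 ± 0.0745 CPM at day 7 (-2.01, adjusted p = 0.00799). The importer gene Slc7a1 fell by 1.02 at day 4. Ass1, which remakes arginine from citrulline, rose by 1.22, and Gch1, the first enzyme of tetrahydrobiopterin synthesis, rose by 0.81 at day 4. Ddah1, which breaks down methylated arginines that inhibit nitric oxide synthases, rose by 1.17. The later cofactor genes Pts and Qdpr fell by 0.51 and 0.29 at day 4. Spr, also a cofactor gene, was not called, at 24.3 ± 1.93 CPM in controls and 27.1 ± 1.37 CPM after irradiation at day 4. Nos1, Nos3 and Arg1 had too few counts to be tested, at most 0.968 CPM.

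Lcn2, Saa1 and Saa2 were not induced to a detectable level. Lcn2 had 0 and 3 counts in day 4 controls, 0 and 1 in the irradiated libraries of that day, and 0 in all 4 day 7 libraries. The ratio at day 4 was 0.507 (exact 95% interval 0.00967 to 6.32), which leaves the direction unresolved. Saa1 and Saa2 had 0 counts in all 8 libraries, which allows levels of up to 0.183 to 0.361 CPM per library (3 counts). The related Saa3 had at most 1 count per library and Saa4 none.

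Other inducible defense genes were present in the same libraries and several rose. Of 24 genes on this list 12 were tested, with 6 higher and 2 lower at day 4 and 3 higher and 0 lower at day 7. All genes tested had shares of 20% higher and 16.5% lower at day 4, and 4.7% and 3.95% at day 7. Il18, a cytokine of the epithelium, rose from 1.41 ± 0.533 to 13.4 ± 3.10 CPM at day 4 (log2 fold change 3.27, adjusted p = 3.63e-05) and from 2.12 ± 0.118 to 5.60 ± 0.416 CPM at day 7 (SD, n = 2; 1.39, adjusted p = 0.0250). Ltf, which encodes the iron-binding protein lactoferrin, rose by 4.43 at day 4, from 0.262 ± 0.112 to 5.68 ± 0.944 CPM. Ltf and the chemokine genes Cxcl1 and Cxcl10 reached the filter in 0 control libraries and so entered the test through the irradiated group. Ccl20, a chemokine that attracts CCR6-bearing cells, rose by 2.88 at day 4. Reg3a, encoding a secreted lectin, rose by 1.51 at day 4 and 2.39 at day 7. Dmbt1, a mucosal scavenger receptor gene, fell by 2.17 at day 4 (233 ± 57.0 to 51.8 ± 13.5 CPM), and Ccl28, a mucosal chemokine, fell by 0.90. At day 7 Dmbt1 lay the other way, at 99.8 ± 2.06 CPM in controls and 134 ± 3.88 CPM after irradiation, and was not called. For the difference between the effects 2 of the 12 genes were called higher at day 7 and 1 lower, against 4.6% and 5.51% of all genes. Pglyrp1, a peptidoglycan recognition gene, rose by 0.55 at day 7. The 12 untested genes included Lbp, Hp, Slpi, S100a8 and S100a9, each at most 0.762 CPM.

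Among receptors, relays and feedback genes of pathways known to induce the members, 14 genes were called higher at day 4. The list includes the feedback inhibitors Nfkbia, Tnfaip3 and Socs3, so its count is not one of inducers alone. Of 30 genes 28 were tested, with 14 higher, 0 lower and 14 not called at day 4 and 0 in either direction at day 7. Among all genes tested 20% were higher and 16.5% lower at day 4, and 4.7% and 3.95% at day 7. At an unadjusted p under 0.05, 7 of the 28 passed at day 7 by edgeR. For the difference between the effects 3 of the 28 were called, all lower at day 7, where 5.51% of all genes were called lower. The median log2 fold change was 0.41 at day 4 and 0.16 at day 7. Il22ra1, the epithelial chain of the interleukin 22 receptor, rose from 11.4 ± 0.574 to 28.9 ± 5.10 CPM at day 4 (1.34, adjusted p = 1.23e-04). Its partner chain Il10rb rose by 0.84. The NF-kB gene Nfkb2 rose by 0.80, Tlr3, a receptor for double-stranded RNA, by 0.65, and Il17ra, a chain of the interleukin 17 receptor, by 0.61. The partner chain Il17rc had a value of -0.09 (adjusted p = 0.773). Nfkbiz and Cebpb, relays known for Lcn2 and Saa genes, had values of 0.20 and -0.62 and were not called. Tlr4 and Il1r1 had too few counts to be tested.

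**Figure D4:**
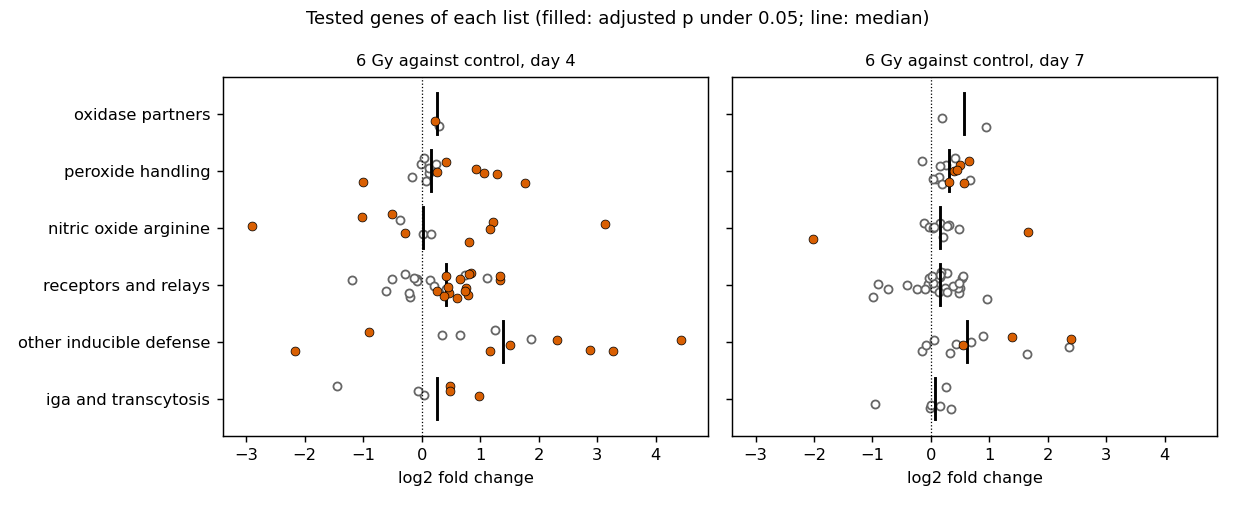
Log2 fold change of irradiated against control organoids for each tested gene of 6 lists at day 4 and day 7; filled points have an adjusted p under 0.05 (edgeR) and the black line is the list's median. At day 4 the receptor and relay list has 14 filled points, all to the right of 0, and at day 7 it has none.

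Pigr, the receptor that carries polymeric IgA into the lumen, was by far the most abundant member and was not called in either irradiation comparison. At day 4 its level was 1803 and 1982 CPM without irradiation and 1212 and 2410 CPM with it. At day 7 it was at 1435 and 1417 CPM in controls and at 1095 and 1087 CPM after irradiation. The irradiated day 4 libraries lay on either side of the controls, whereas at day 7 both irradiated libraries lay below both controls. The means were 1892 ± 127 and 1811 ± 847 CPM at day 4 and 1426 ± 12.6 and 1091 ± 5.19 CPM at day 7 (SD, n = 2). The log2 fold change was -0.06 at day 4 (95% interval -0.75 to 0.63, adjusted p = 0.888) and -0.39 at day 7 (95% interval -1.08 to 0.30, adjusted p = 0.457). The day 4 value rests on which irradiated library is kept: without replicate 1 it was 0.35 (adjusted p = 0.00545) and without replicate 2 it was -0.64 (adjusted p = 1.29e-04). Replicate 2 was also the library with the highest enterocyte sum and mitochondrial share. Replicates lay closer together at day 7, with a median absolute log2 difference over genes of 0.108 in controls and 0.118 in irradiated organoids, against 0.192 and 0.222 at day 4. The edgeR fit of the day 7 groups alone gave -0.39 for Pigr with an adjusted p of 5.11e-10. Per length Pigr stood at 407 to 718 TPM, between rank 126 and rank 252 among all genes of a library.

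The ligands of PIGR are made by plasma cells, and their genes were near 0. Jchain was at most 0.327 CPM, and Igha and Ighm had at most 1 count per library. Of 9 genes of IgA handling and transcytosis 6 were tested, with 3 higher and 0 lower at day 4 and 0 in either direction at day 7. At day 7, 2 of the 6 passed an unadjusted p under 0.05 by edgeR. Of all genes tested, 20% were higher and 16.5% lower at day 4, and 4.7% and 3.95% at day 7. For the difference between the effects 2 of the 6 were called, both lower at day 7, where 5.51% of all genes were called lower. Myo5b, the motor of apical recycling, rose from 144 ± 2.75 to 285 ± 47.7 CPM at day 4 (a log2 fold change of 0.99, SD over n = 2, adjusted p = 8.42e-05). Rab11a, a GTPase of recycling endosomes, rose by 0.48, and Stx3, an apical fusion gene, by 0.49. Rab25 (-0.06) and Fcgrt, the neonatal Fc receptor (0.05), were not called. Fcamr, another receptor for IgA and IgM, had a value of -1.45 (adjusted p = 0.0528), with 2.73 and 2.93 CPM in controls and 0.860 and 1.20 CPM after irradiation.

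**Figure D5:**
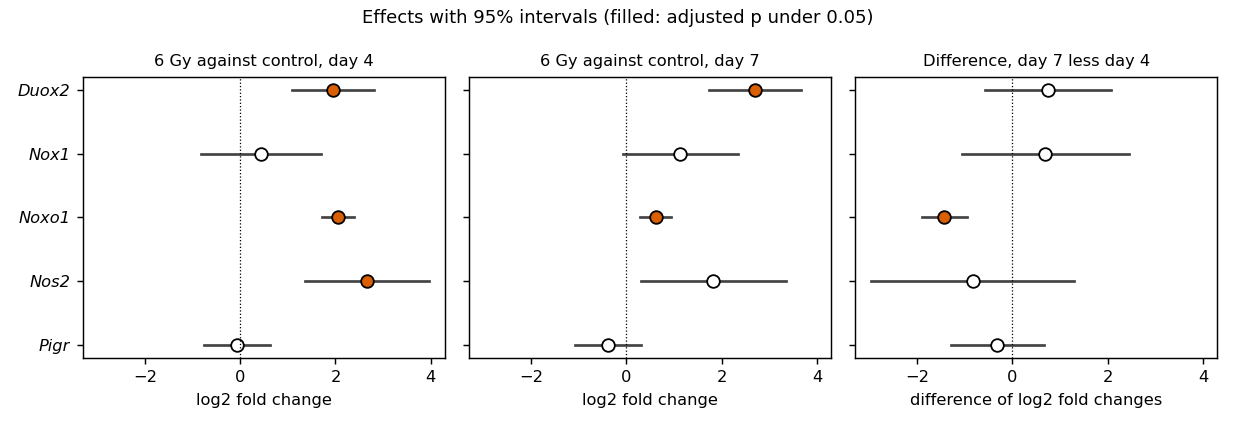
Log2 fold change of irradiated against control organoids with its 95% interval for the 5 tested members at day 4 and day 7, and the difference between these effects; filled points have an adjusted p under 0.05 (edgeR, n = 2 libraries a group). The intervals of Duox2 lie above 0 at both days, those of Pigr cross 0 in every panel, and the difference for Noxo1 lies below 0.

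Between day 4 and day 7, 1 member changed in control organoids and none passed the test in irradiated organoids. In controls Noxo1 was called higher at day 7 (log2 fold change 1.19, SE 0.159, adjusted p = 0.00565), where 2.72% of all genes were called, 1.25% higher and 1.46% lower. Summed with Tbl3 the change was 0.19 (adjusted p = 0.314), and for Noxo1 alone the adjusted p was 0.0674 without control day 7 replicate 1 and 0.0955 without replicate 2. In irradiated organoids 0 of the 5 members were called by edgeR, with 1 of 5 at an unadjusted p under 0.05 (Pigr), where 33% of all genes were called, 14.7% higher and 18.3% lower. The values there were 0.03 for Duox2 (95% interval -0.76 to 0.81), -1.08 for Nos2 (adjusted p = 0.147) and -0.73 for Pigr (adjusted p = 0.0993). Without irradiated day 4 replicate 1 the Pigr value was -1.14 (adjusted p = 9.35e-07). Noxo1 itself was at -0.24 (adjusted p = 0.215), Tbl3 rose by 0.68 (adjusted p = 0.00130) and their sum by 0.36 (adjusted p = 0.0140). The sum of Nox1 and Cstf2 rose by 0.35 (adjusted p = 0.0183), as did Cstf2 alone by 0.34 (adjusted p = 0.0195).

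Across the 8 libraries, the genes most like each tested member in log2 CPM were found among 9911 or 9912 other genes whose mean was 5 CPM or more. These correlations are descriptions over libraries that share 4 groups. Duox2 was most like Slc5a6 (Pearson r = 0.984), Tpst2 and Prl2c2 (both 0.978), and Nos2 stood at r = 0.917, at rank 79 for Duox2. Prl2c2 was at 0.427 ± 0.603 and 0 CPM in controls at day 4 and day 7 and at 10.6 ± 7.40 and 11.9 ± 1.31 CPM after irradiation (SD, n = 2). Nos2 was most like Ap1s1 (0.990) and Tmbim4 (0.987). Noxo1 was most like Bad (0.990), Akp3 (0.986) and Slc38a7 (0.984). With Noxo1 and Tbl3 summed these correlations were 0.757, 0.748 and 0.827, at ranks 807, 848 and 476, so the ranking depended on the division of reads. Akp3, an intestinal alkaline phosphatase gene, went from 1.97 ± 0.110 to 90.4 ± 20.6 CPM at day 4 and from 13.1 ± 0.113 to 40.7 ± 2.31 CPM at day 7. Nox1 was most like Nop9 (0.981), Dyrk3 (0.972) and Alg14 (0.971), against 0.358, 0.206 and 0.413 for the sum of Nox1 and Cstf2. Pigr was most like Slc38a1, Slc31a1 (both 0.984) and Sprr2a3 (0.979). Nox1 and Pigr had r = -0.897. The other pairs of members ranged from -0.437 to 0.757.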

How the data were processed

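RNA was sequenced in 8 libraries of mouse organoids, poly-A selected with a directional kit per the labels' protocols. The authors deposited expected counts and TPM per Ensembl gene. The submitters' processing notes list RSEM 1.3.3, STAR 2.7.3a, Trim Galore and FastQC, and builds GRCm39 and mm10 are named without a role. The strand setting is not given in the sources used here. Deposited counts were made whole by rounding (11.4% of values changed), filtered (filterByExpr, minimum count 10, minimum total 15), scaled by TMM and tested with edgeR 4.0.16 (robust quasi-likelihood F-test, two-sided, 4 residual degrees of freedom, R 4.3.3) in 1 fit of 4 group means. CPM are TMM scaled. Standard errors came from the fold change and the F statistic, and intervals are at 95%. Depth limits genes of few counts: 3 counts were the floor. Alternatives used DESeq2 1.42.0, limma 3.58.1 on voom values and on log2 of the deposited TPM with pseudocounts of 1 and 0.1, other filters and scalings, and libraries left out; summing genes that share reads was added after seeing the data. Names and overlaps came from GENCODE M21. All 9 members were named, and some other genes are not reported here. In the oxidase, nitric oxide and IgA lists any gene could be named, in the other lists up to 4 called genes in each direction and genes a result turns on. The members and lists were chosen with earlier results of these data known. The script was tested on simulated data.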

Additional observations from a re-analysis of the deposited data

Results flagged for a closer look

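The effect of irradiation on Noxo1 differed between the days by the test of the difference itself: -1.43 on the log2 scale (day 7 less day 4; SE 0.213, edgeR adjusted p = 0.00476), from 2.05 at day 4 and 0.62 at day 7. With Noxo1 and the overlapping Tbl3 summed, the difference was 0.17 (adjusted p = 0.439). Tbl3 alone differed the other way, by 0.73 (SE 0.150, adjusted p = 0.0156).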

How the results depend on the processing

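Of 388 values of single members under alternatives, 338 kept direction and side of the threshold, 23 lost and 7 gained the call with the sign kept, and 20 changed sign, 3 of them then called; no cause was tested. Scaling by DESeq2 size factors, limma-voom and libraries without mitochondrial genes moved no count of called members by over 1.5 times. On log2(TPM + 1), log2(TPM + 0.1) and unfiltered log2(TPM + 1), 1 member was called higher at day 4 and 0 at day 7, and the unfiltered fit left 0 for the difference between effects and 0 for control time. There Pigr's difference between effects was 0.11 in all 3, and Noxo1's irradiated time change 0.12, 0.13 and 0.12. On both filtered TPM scales the median of all genes lay at -0.17 and -0.20 at day 4, 0.12 and 0.13 at day 7, 0.26 and 0.30 for the difference and 0.30 and 0.34 in irradiated time, and with DESeq2 at -0.18 for the difference, against 0.00, 0.00, -0.04 and -0.03 with edgeR. Genes called ranged from 1434 (unfiltered TPM) to 5629 (no filter on counts) at day 4 and, with all libraries, from 44 (unfiltered TPM) to 4747 (only the groups compared) at day 7. DESeq2 called 1 higher at day 7. Fits of only the groups compared called 1 lower at day 7 and 1 lower in control time (Pigr). The stricter filter gave Duox2 -0.017 for irradiated time. With Noxo1 and Tbl3, and Nox1 and Cstf2, each summed, the calls are those of the sums: 1 lower at day 4 (Nox1 with Cstf2, where Cstf2 alone had -0.33), 0 for the difference, 0 higher in control time and 2 higher in irradiated time. The sum with Nox1 was at -0.33 and -0.026 at day 4 and day 7, and that with Noxo1 at 0.17 for the difference and 0.36 in irradiated time.

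Leaving out single libraries, members called higher ranged from 0 to 1 at day 7 and 0 to 1 in control time, called lower from 0 to 1 at day 4, 1 to 2 for the difference and 0 to 1 in irradiated time. Over all genes, 98 to 160 were then called at day 7, against 1216 with all libraries. Signs changed within these ranges: Pigr at day 4 from -0.64 (without irradiated replicate 2) to 0.35 (without irradiated replicate 1), with 0.0067 without control replicate 2, and its difference from -0.73 to 0.26 (without irradiated day 4 replicate 1 and 2). Nox1 at day 4 ran from -0.31 to 0.92 (without irradiated replicate 1 and 2). Nos2 ran from -1.52 to 0.055 for the difference (0.055 without control day 7 replicate 1) and from -1.13 to 0.43 in control time (0.43 without day 4 and 0.35 without day 7 replicate 2). Duox2 in irradiated time ran from -0.35 to 0.54 (-0.35 without day 4 and -0.09 without day 7 replicate 2). A lone library in a group was assumed to vary like the others.

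Libraries with the same replicate number did not deviate together (correlations from -0.0355 to 0.0581 between groups). With 2 libraries a group this does not settle whether equal numbers mark a shared origin. With the replicate block 3 members were called higher at day 4 and 2 at day 7, the difference kept 1 lower, and 5153 genes were called at day 4 and 1245 at day 7.

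Depth limits the low members: Duox2, Nos2, Nox1 and Duoxa2 had at most 66, 32, 20 and 9 counts in a library. The count-to-TPM length varied across libraries 1.77-fold for Duox2, 1.69-fold for Noxo1 and 2.21-fold for Nos2. Over 8013 well counted genes the median was 1.12-fold and the 95th percentile 1.52-fold.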
